A study of Sus scrofa with 79 samples.

Results

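Fatty acid binding proteins are small proteins of the cytosol that carry fatty acids, bile acids and other lipids between membranes and organelles. In the small intestine the liver form FABP1 and the intestinal form FABP2 belong to absorbing enterocytes, and FABP6, the ileal bile acid binding protein, carries bile acids taken up at the end of the small intestine. FABP3 is known from heart and muscle, FABP4 from adipocytes and macrophages, and FABP5 from skin and many other epithelia. These 6 genes are described here over 79 pig arrays. Of 43603 probes on the array, 20 map to them through the RefSeq accession of the probe: 3 for FABP1, 2 for FABP2, 3 for FABP3, 7 for FABP4, 4 for FABP5 and 1 for FABP6. The family was chosen by the FABP6 signal of these arrays, which had been seen to differ between ileum and jejunum, so every difference between ileum and jejunum below is a description without a test.

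Jejunum and ileum of piglets of TOPIGS20 sows were measured at 8, 55 and 176 days after birth, and blood at day 8. T1 piglets were left undisturbed, T2 piglets received 1 subcutaneous injection of the macrolide antibiotic tulathromycin (2.5 mg/kg) at day 4, and T3 piglets received that injection together with docking, clipping and weighing. Each array held RNA pooled from 4 piglets of 1 treatment, with 4 pools in each group or 3 where an array was not analysed here (ileum T2 at day 8, both tissues of T2 at day 55, ileum T3 and jejunum T2 at day 176). The pools were numbered 9 to 12 in T1, 5 to 8 in T2 and 1 to 4 in T3, and at day 8 a pool of jejunum, ileum and blood came from the same piglets, which had stayed with their own sow. Pieces of intestinal tissue were used, and with bulk RNA fewer cells of a type and less RNA per cell cannot be told apart.

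All levels are log2 intensities. The 67 intestinal arrays were quantile normalized together and the 12 blood arrays apart, so a blood level cannot be set against an intestinal one, and levels of different genes, which rest on different probes, are not compared. In the intestine every probe of FABP1, FABP2, FABP3 and FABP6 was well above background on all 67 arrays. This held for 3 of 4 FABP5 probes, with the other one above background on 66 arrays, and for none of the 7 FABP4 probes, which were above background on 17 to 66 arrays. In blood the FABP6 probe, the 3 FABP3 probes and 2 of the 4 FABP5 probes were well above background on all 12 arrays. No FABP2 probe was above background on any blood array, and FABP1 and FABP4 probes were above background on at most 2, so no fold is given for these 3 genes in blood. No probe of the family was saturated.

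The share of probes well above background was 34.8 to 44.1% in blood and 42.4 to 75.2% in the intestine. The 6 intestinal arrays farthest from the median array of their tissue and age were jejunum T2 pool 8, T1 pool 9 and T3 pool 4 at day 176, with root mean square distances of 1.98, 1.19 and 1.01 on the log2 scale, ileum T1 pool 11 and jejunum T2 pool 8 at day 8, with 1.16 and 0.955, and ileum T3 pool 3 at day 55, with 1.10, and the next array was at 0.937. The medians of the sets were 0.448 to 0.656. The tissue names of days 8 and 55 carry a further limit. The authors also deposited a table of normalized values, and the columns of that table which matched the scanner values pool by pool bore other names at these ages. Scanner jejunum of day 8 matched columns named ileum day 8 (11 of 12 pools), scanner ileum of day 8 matched ileum day 55 (11 of 11), scanner ileum of day 55 matched jejunum day 55 (11 of 11), and scanner jejunum of day 55 matched jejunum day 8 (11 of 11). Both tissues of day 176 matched their own names. The pool without a match was jejunum T2 pool 8 of day 8, since no column was named ileum day 8 pool 8. Its highest correlation with any column of that set was 0.173. The name of this array could thus not be checked in this way, and it is counted below. A column named jejunum day 8 pool 8 does exist, and its correlation with this array was not looked at by itself. Of the 12 scanner jejunum arrays of day 8, 1 had its own pool number as best match among columns of that name. Pool numbers were compared between scanner sets over the 1000 most variable genes with group means removed. The mean correlation of equal pool numbers was 0.45 between ileum and jejunum of day 8 and 0.187 between those of day 55. It was −0.01 between jejunum of days 8 and 55 and 0.0554 between ileum of days 8 and 55. A pool's best match was its own number in 10 of 11 pools at day 8 and 8 of 11 at day 55. Between jejunum of days 8 and 176, which are different piglets, the mean was 0.244, with 2 of 11 best matches. A mean as high as that of day 55 was thus also seen without shared piglets. No other pair of sets had a mean as high as that of day 8. None had as many best matches as the pairs of day 8 and of day 55. Under the names of the table each of these pairs would join days 8 and 55, which are different piglets. The names were not tested further and are not settled. The names of the scanner files are used below. Values under the names of the table are given for the changes with age, and treatment comparisons of days 8 and 55 would keep their values and take the other names: the jejunum and ileum arrays of day 8 would be ileum of day 8 and of day 55, and those of day 55 would be jejunum of day 8 and of day 55.

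FABP6 did not separate the tissues at day 8 but differed from pool to pool by more than 10 log2 units. In T1 the jejunum levels were 16.16, 15.09, 11.74 and 6.81 in pools 9, 10, 11 and 12, and the ileum levels of the same pools were 16.48, 14.81, 13.31 and 6.27. In T2 the jejunum levels were 5.82, 11.16, 6.16 and 6.0 in pools 5, 6, 7 and 8, and the ileum levels of pools 5, 6 and 7 were 5.62, 9.60 and 5.87. In T3 the jejunum levels were 14.57, 8.66, 14.41 and 14.65 in pools 1, 2, 3 and 4, and the ileum levels were 14.63, 8.94, 14.74 and 14.69. A pool that was high in jejunum was therefore high in ileum, and a pool that was low in one was low in the other. The difference between the tissues within a pool lay between −1.56 and 1.57 over 11 pools, whereas the mean of a pool ranged from 5.72 to 16.32 (SD 4.02). As a description, the share of the variation that lay between pools (intraclass correlation over the 11 pools) was 0.98 for FABP6 at day 8, and 0.0649% of all genes had a higher value, with a median of 0.13 over all genes. The highest and lowest jejunum pools differed 1300-fold.

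**Figure D1:**
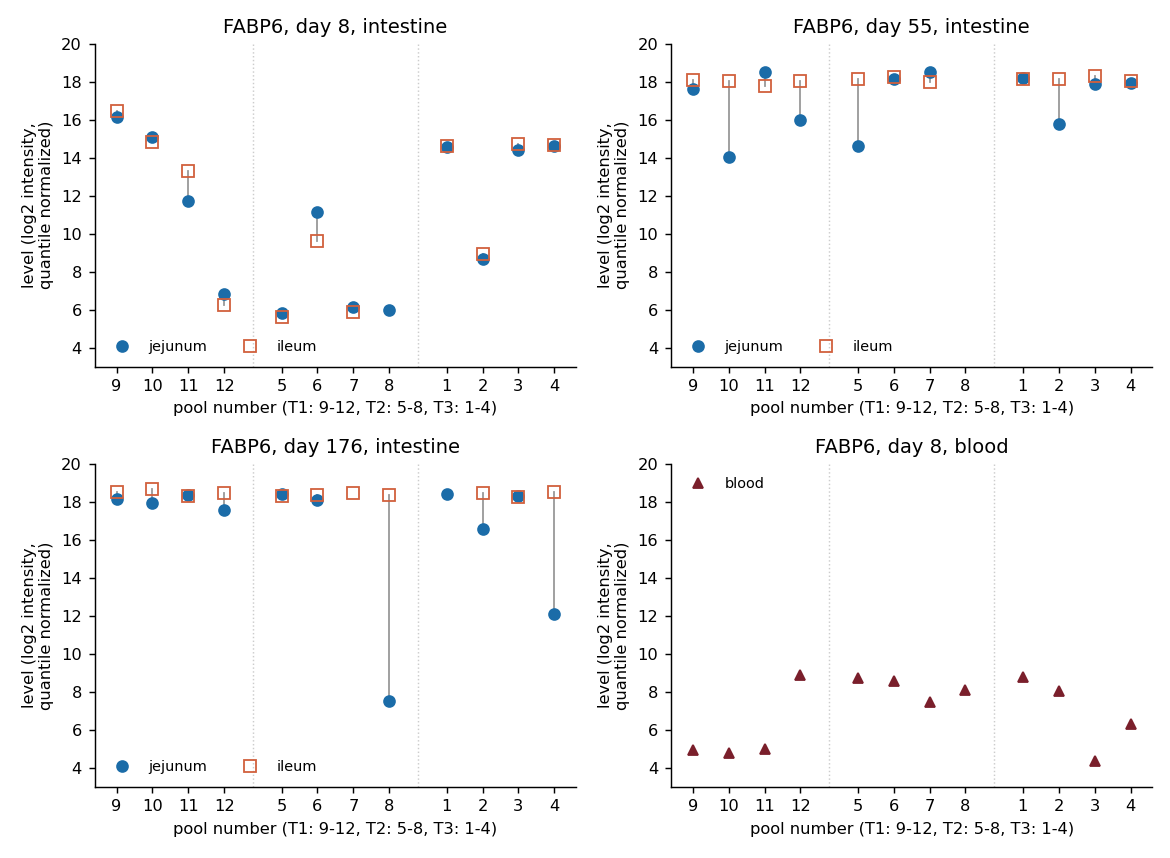
FABP6 level (log2 intensity) of every pool, with circles for jejunum and squares for ileum joined by a line within a pool, at days 8, 55 and 176, and with triangles for blood at day 8, which was normalized apart. At day 8 both tissues of a pool lie together between 5.62 and 16.48, and at days 55 and 176 the ileum pools lie between 17.81 and 18.67 while single jejunum pools lie lower.

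By day 55 FABP6 was uniformly high in ileum, with levels of 17.81 to 18.33 and a median of 18.10 over 11 pools. Jejunum was at 17.65 to 18.52 in 7 of 11 pools and lower in T1 pool 10 (14.02), T2 pool 5 (14.63), T3 pool 2 (15.79) and T1 pool 12 (15.98). At day 176 the ileum levels were 18.28 to 18.67, and those of jejunum were 16.60 to 18.45 in 9 of 11 pools. The other 2 jejunum pools were T2 pool 8 at 7.52 and T3 pool 4 at 12.10, both of them on arrays named above as farthest from their set. In order of the mean, FABP6 was highest in ileum at day 176 (18.45 ± 0.11, SD, n = 11), then in ileum at day 55 (18.10 ± 0.14, n = 11), jejunum at day 55 (17.03 ± 1.63, n = 11), jejunum at day 176 (16.51 ± 3.51, n = 11), ileum at day 8 (11.36 ± 4.16, n = 11) and jejunum at day 8 (10.94 ± 4.04, n = 12). The pools of all neighbours in that order overlapped. Ileum minus jejunum was 0.06 at day 8, 1.08 at day 55 and 2.09 at day 176, and 0.43 at day 176 without the 6 arrays farthest from their set. Under the names of the value table the difference was −6.10 at day 8 and −7.11 at day 55.

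The remaining members also had nearly equal mean levels in both tissues at day 8. Later the pools of the tissues did not overlap for FABP2 at both ages, for FABP1 and FABP4 at day 55 and for FABP3 at day 176, and they overlapped for FABP5 at both ages, for FABP3 at day 55 and for FABP1 and FABP4 at day 176. For FABP4 at day 55 the highest ileum pool (6.01) was next to the lowest jejunum pool (6.02). The share of all genes without overlap between the tissues was not counted, so nothing is read from this list. FABP1 was 16.88 ± 0.26 in jejunum (SD, n = 12) and 16.88 ± 0.26 in ileum (n = 11) at day 8, but 17.28 ± 0.10 and 15.96 ± 0.36 at day 55 and 17.07 ± 0.63 and 16.08 ± 0.43 at day 176 (n = 11 each). FABP2 was 16.18 ± 0.29 in jejunum and 16.15 ± 0.28 in ileum at day 8, 16.32 ± 0.30 and 14.24 ± 0.35 at day 55, and 16.58 ± 0.24 and 13.97 ± 0.67 at day 176. For FABP2 no ileum pool reached the lowest jejunum pool at either later age, with ileum levels up to 14.87 and 14.71 and jejunum levels from 15.81 and 16.15. FABP3 went the other way: it was 11.20 in both tissues at day 8 (SD 0.58 in jejunum and 0.57 in ileum), and at day 176 the jejunum pools lay between 11.36 and 12.84 and the ileum pools between 13.21 and 14.45. FABP5 was higher in ileum than in jejunum in 11 of 11 pools at day 55, by 0.21 to 1.04, and in 7 of 11 pools at day 8. FABP4 was lower in ileum in 11 of 11 pools at day 55, by 0.01 to 2.28, and in 7 of 10 pools at day 176. Under the names of the value table, ileum minus jejunum at day 55 was 0.93 for FABP1, 1.90 for FABP2, −2.26 for FABP3 and 1.48 for FABP4, each of the opposite sign. Over all genes 2.5% differed between the tissues at day 8, 39.8% at day 55 and 28.8% at day 176 (23.7% over the 3 ages) by the rule used for the tests below. The 5 proximal intestine markers on the array (GATA4, CYBRD1, SLC11A2, CCK and MLN) had mean levels, centred on all 67 arrays, that overlapped at day 8 (0.67 to 1.81 in jejunum and 0.30 to 1.58 in ileum) and did not overlap at day 55 (0.18 to 1.68 and −1.84 to −0.86). Only 2 of 11 markers of ileum could be tested, GUCA2A and GCG. Their mean centred levels overlapped at day 8 (0.10 to 0.61 in jejunum and 0.05 to 0.52 in ileum) and at day 55 (−0.44 to 0.28 and −0.61 to 0.53). At day 176, whose names agree in both sources, they were lower in ileum (−1.59 to −0.18) than in jejunum (0.06 to 0.48).

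**Figure D2:**
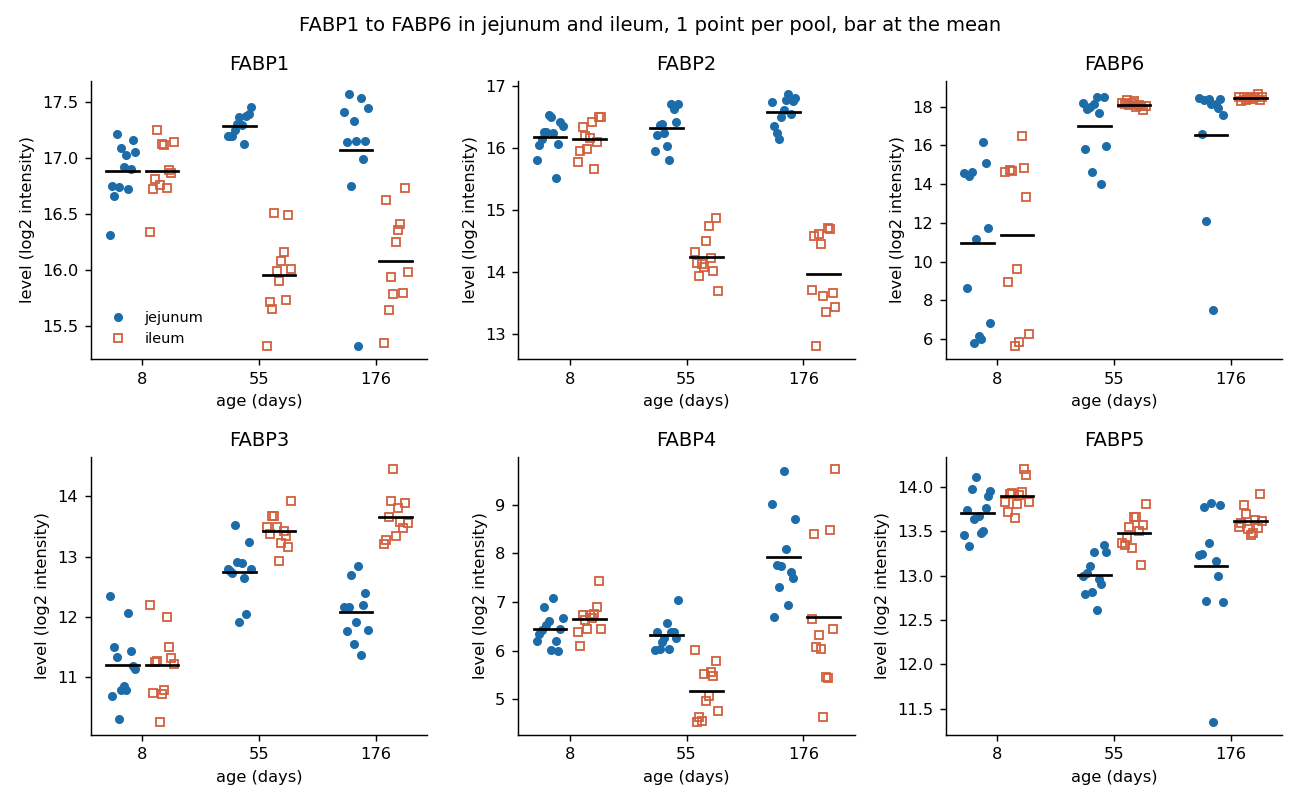
Level (log2 intensity) of each of the 6 genes by age in days, with 1 circle per jejunum pool, 1 square per ileum pool and a bar at the mean. The tissues coincide at day 8, FABP1 and FABP2 are lower in ileum at days 55 and 176 than at day 8, and FABP3 and FABP6 are higher in both tissues at the later ages under the scanner names.

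At day 8 FABP3, FABP1 and FABP2 also differed mainly between pools. For FABP3 the jejunum and ileum levels were 12.06 and 11.99 in T1 pool 9 and 12.35 and 12.20 in T3 pool 1, the highest of their groups, and 10.31 and 10.25 in T2 pool 5, the lowest of all. The intraclass correlation between pools was 0.98 for FABP3 (0.0681% of genes were higher), 0.89 for FABP1 (1.59%) and 0.82 for FABP2 (3.17%). FABP4 and FABP5 stood near the median gene, at −0.09 and 0.07. At day 55 the values were −0.01 for FABP6, 0.37 for FABP3 and −0.55 for FABP2 around a median of 0.12. Over the 23 day 8 arrays FABP6 correlated with FABP3 at r = 0.79 and with FABP2 at r = −0.48, where arrays of jejunum and ileum share their piglets.

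The age comparisons asked whether a gene's level in a tissue changed between 8, 55 and 176 days. A gene was called when its Benjamini-Hochberg adjusted p over all 30816 genes in limma was below 0.05 and its fold change above 1.5. Of 36 age tests on the family 19 were called, 11 higher and 8 lower with age, beside 41.2% of all genes over the same comparisons (21.8% higher and 19.4% lower). The 3 comparisons of a tissue share arrays. Different piglets were used at each age, and no slide held intestinal arrays of more than 1 age, so that age cannot be told apart from animal and slide. FABP6 rose in ileum by 7.11 ± 1.07 from day 8 to day 55 (SE, 138-fold, adjusted p = 1.08e-07) and by 7.45 ± 1.07 to day 176 (adjusted p = 3.29e-08). In jejunum it rose by 6.10 ± 1.04 (68.5-fold, adjusted p = 2.34e-06) and by 5.42 ± 1.04 (adjusted p = 1.29e-05), the latter 6.90 without the 6 arrays farthest from their set. Between days 55 and 176 FABP6 was not called, at 0.34 ± 1.07 in ileum and −0.67 ± 1.07 in jejunum. These errors come from 1 spread over all groups, including the wide day 8 pools. The ileum pools themselves had SDs of 0.14 and 0.11 at days 55 and 176. The share of genes called from day 8 to day 55 was 47.3% in ileum and 37.1% in jejunum, and to day 176 it was 48.6% and 49%.

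The 2 enterocyte forms fell in ileum and were not called in jejunum. FABP2 fell by 1.90 ± 0.17 from day 8 to day 55 (adjusted p = 1.81e-14) and by 2.21 ± 0.17 to day 176 (adjusted p = 7.01e-17). FABP1 fell by 0.93 ± 0.16 (adjusted p = 2.93e-06) and by 0.83 ± 0.16 (adjusted p = 1.9e-05). In jejunum FABP1 changed by 0.41 ± 0.16 and 0.15 ± 0.16 and FABP2 by 0.11 ± 0.16 and 0.40 ± 0.16, all below the fold limit. The jejunum values depended on the scaling. When arrays were scaled to their 75th percentile instead, all 4 were called, at 0.90 and 0.74 for FABP1 and 0.67 and 0.94 for FABP2, and the fall of FABP1 in ileum to day 176 was −0.30 and no longer called. The mean level of 10 enterocyte markers on the array, centred as above, was −0.12 to 0.62 on the day 8 arrays of both tissues, 0.60 to 1.09 in jejunum and −1.04 to 0.07 in ileum at day 55, and −0.59 to 0.48 and −1.83 to −1.02 at day 176, and their part in the fall was not tested.

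FABP3 rose in both tissues, by 2.26 ± 0.18 in ileum to day 55 (adjusted p = 1.31e-15) and 2.48 ± 0.18 to day 176 (adjusted p = 4.33e-17), and by 1.54 ± 0.18 (adjusted p = 2.89e-10) and 0.88 ± 0.18 (adjusted p = 3.59e-05) in jejunum. All 3 FABP3 probes were well above background throughout. FABP5 fell in jejunum by 0.71 ± 0.15 to day 55 (adjusted p = 0.000119) and by 0.62 ± 0.15 to day 176 (adjusted p = 0.000455). The second of these rested partly on 1 array, jejunum T2 pool 8 at day 176, where a single FABP5 probe read 4.05 and lay 9.73 below the other FABP5 probes, against a median gap of −0.03 in that set. Without that array the change was −0.37 and was not called. On the same array 1 FABP1 probe read 11.18, which lay 6.22 below the other FABP1 probes where the median gap was 0.30.

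FABP4 moved late and unevenly. It rose from day 55 to day 176 in jejunum by 1.65 ± 0.31 (adjusted p = 2.21e-05) and in ileum by 1.55 ± 0.31 (adjusted p = 8.51e-05), after a fall in ileum of 1.48 ± 0.31 from day 8 to day 55 (adjusted p = 6.75e-05). The share of genes called between days 55 and 176 was 36.9% in jejunum and 28.3% in ileum. At day 176 the ileum pools spread from 4.63 to 9.73, a 34.3-fold range, and 3 of them lay far above the rest, namely T1 pool 12 (9.73), T1 pool 10 (8.48) and T3 pool 3 (8.4), with T3 pool 2 next at 6.66. The jejunum pools spread from 6.69 to 9.69, with T2 pool 6 and T3 pool 1 (9.02) at the top. Of 9 adipocyte markers on the array, PLIN1 was well above background in 1 of 22 intestinal arrays of day 176 and ADIPOQ in 17, and the mean centred level of the 9 was −0.57 to 0.39 in ileum and −0.66 to 0.68 in jejunum. In the 3 ileum pools with high FABP4 it was 0.27, −0.11 and −0.02, within the range of the other ileum pools. Single genes went otherwise. CIDEA was at 8.03, 6.95 and 6.72 in T1 pool 12, T1 pool 10 and T3 pool 3, and at most 6.33 in the other ileum pools. CA3 and FMO1 were also highest in these 3 pools. Those 3 genes are the ones most correlated with FABP4 over all intestinal arrays, so this is partly built in. ADIPOQ was at 5.84, 2.54 and 4.41 in the same pools. The part of fat tissue in the FABP4 levels was not tested.

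**Figure D3:**
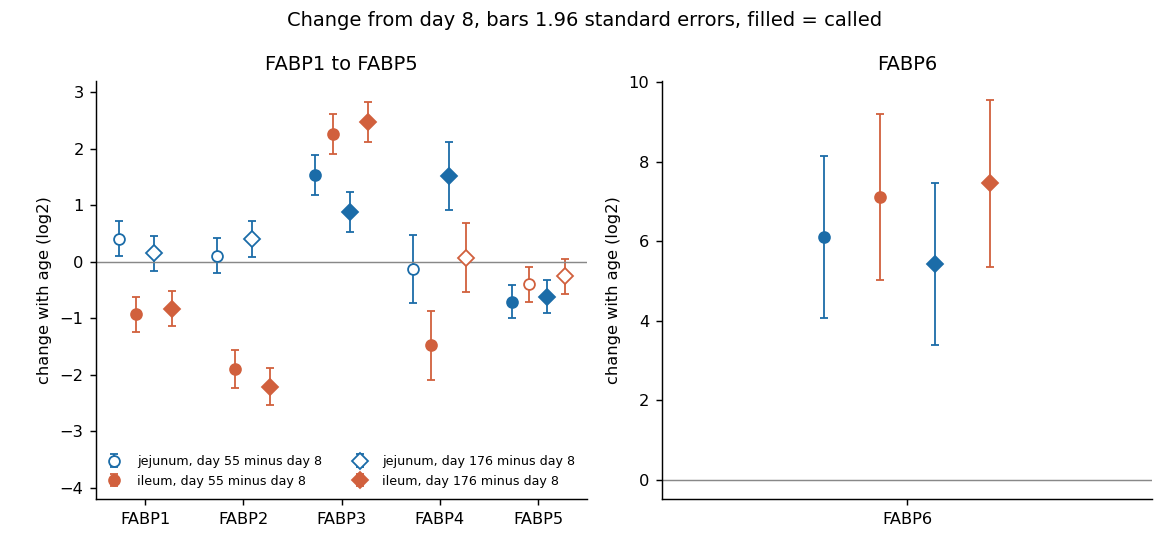
Change of each gene from day 8 (log2) in jejunum (blue) and ileum (orange), to day 55 (circles) and to day 176 (diamonds), with bars of 1.96 standard errors from limma over 67 arrays and filled symbols where the change was called. Under the scanner names FABP6 rises by 5.42 to 7.45 in both tissues, FABP1 and FABP2 fall in ileum, and FABP3 rises in both. Scaling to the 75th percentile also calls FABP1 and FABP2 higher in jejunum.

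The age change in ileum minus that in jejunum rests on the same tissue difference that was in view when the family was chosen, so it is given as a description without a test. From day 8 to day 55 FABP2 changed by −1.90 in ileum and 0.11 in jejunum, a difference of −2.01 ± 0.23 (SE), and to day 176 the difference was −2.61 ± 0.23. For FABP1 it was −1.34 ± 0.23 and −0.99 ± 0.23, and for FABP4 −1.35 ± 0.44 and −1.44 ± 0.44. For FABP3 it was 0.73 ± 0.26 and 1.60 ± 0.26, the only positive pair among these 4 genes. For FABP6 it was 1.01 ± 1.49 and 2.02 ± 1.49, with intervals (1.96 standard errors each way) from −1.92 to 3.94 and from −0.91 to 4.95. From day 55 to day 176 FABP3 stood at 0.87 ± 0.26 and FABP2 at −0.60 ± 0.24. The limits used for the other comparisons would mark 10 of the 18 differences, 3 positive and 7 negative, where they marked 28.6% of all genes (13.6% positive and 15% negative), with 34.4% to day 55, 20.8% to day 176 and 30.6% between the later ages, and nothing is read from that count.

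With the names taken from the value table, 18 of 36 age tests were called, but not the same ones: 10 of the 19 age calls were lost and 9 others gained. Under these names 2.5% to 50.7% of all genes were called, depending on the comparison. The rise of FABP6 in ileum from day 8 to day 176 was nearly the same (7.51, adjusted p = 1.18e-08), while its change from day 8 to day 55 became 0.06 in ileum and 1.08 in jejunum, neither called. The fall of FABP2 in ileum from day 8 to day 176 (−2.24, adjusted p = 1.14e-17) and the rise of FABP3 there (2.43, adjusted p = 2.39e-17) also did not depend on the names. The early falls of FABP1 and FABP2 moved from ileum to jejunum (−1.32 and −2.04 to day 55), and FABP3 rose by 0.68 in jejunum and changed by −0.05 in ileum. Day 176, whose names agree in both sources, thus gives FABP2 lower and FABP3 higher in ileum than at day 8 with either set of names.

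The treatments were compared within each tissue and age to ask what an early antibiotic, with or without handling, did to gene expression. No member was called in any of 108 intestinal tests by limma, beside 2.34% of all genes (0.163% at day 8, 6.47% at day 55 and 0.395% at day 176). At day 8 the share of all genes called for T2 against T1, T3 against T1 and T3 against T2 was 0.0162%, 0% and 0% in jejunum and 0.14%, 0.808% and 0.0162% in ileum. At day 55 it was 2.98%, 10.8% and 1.32% in jejunum and 0.0714%, 14.8% and 8.8% in ileum, and at day 176 it was 1.42%, 0% and 0.948% in jejunum and 0.00649%, 0% and 0% in ileum. None of 54 tests of treatment by tissue was called for a member, beside 0.867% of all genes (0.0325% for T3 against T1 at day 8 and 5.92% at day 55), and 2 of the 54 had an unadjusted p below 0.05, beside 10.2% of all gene tests. The 3 comparisons of a tissue and age share their pools. At an unadjusted p below 0.05, 10 of the 108 were found (9.26%), beside 13.3% of the same tests over all genes. They were 4 of 18 in jejunum and 4 of 18 in ileum at day 8, where 4.67% and 16.6% of all gene tests were below 0.05, 1 in jejunum at day 55 (17.7%) and 1 in ileum at day 176 (5.9%). The 8 of day 8 were all of FABP6 and FABP3, in T2 against either T1 or T3. FABP6 was lower in T2 than in T1 by 5.16 ± 2.21 in jejunum (SE, n = 4 and 4, limma adjusted p = 0.63) and by 5.69 ± 2.38 in ileum (n = 3 and 4, limma adjusted p = 0.223). It was higher in T3 than in T2 by 5.79 ± 2.21 (limma adjusted p = 1) and 6.22 ± 2.38 (limma adjusted p = 0.422). T3 minus T1 was 0.62 ± 2.21 in jejunum and 0.53 ± 2.21 in ileum, with intervals from −3.71 to 4.95 and from −3.8 to 4.86. These large differences did not exceed the spread between pools, since T1 pool 12 lay within 1 log2 unit of T2 pools 5, 7 and 8, and T2 pool 6 was above T3 pool 2. Jejunum and ileum of a pool come from the same piglets and are not separate support. Each group lay on 1 slide. At day 8 T1 and T2 shared a slide in ileum but not in jejunum or blood, and T2 and T3 shared one in jejunum and blood but not in ileum, so that T2 minus T1 in jejunum and blood, T3 minus T2 in ileum and T3 minus T1 in all of them cannot be told apart from the slide. At day 55 T3 lay on another slide than T1 and T2 in both tissues.

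FABP3 was also lowest in T2, with smaller differences and less overlap with T1, and T3 minus T1 was 0.01 ± 0.32 in jejunum and −0.14 ± 0.32 in ileum. In jejunum the T1 levels were 12.06, 11.44, 11.18 and 11.13 in pools 9 to 12, the T2 levels 10.31, 10.78, 10.85 and 10.79 in pools 5 to 8, and the T3 levels 12.35, 10.69, 11.50 and 11.33 in pools 1 to 4. All T2 pools lay below all T1 pools, in jejunum and in ileum, which was so for 2.48% and 5.05% of all genes. T3 pool 2 lay among the T2 pools. T2 was lower than T1 by 0.77 ± 0.32 in jejunum (n = 4 and 4, limma adjusted p = 0.607) and by 0.92 ± 0.35 in ileum (n = 3 and 4, limma adjusted p = 0.186). Pools 1, 5 and 9, and likewise 2, 6 and 10, 3, 7 and 11, and 4, 8 and 12, came from the same 4 sows each. Within these sets T2 was below T1 in 4 of 4 sets in jejunum and 3 of 3 in ileum, for FABP6 as for FABP3, and T3 was above T2 for FABP6 in 3 of 4 and 2 of 3. The share of all genes with the same order was not counted, and both tissues hold the same piglets. Nothing is therefore read from these counts. The differences T2 minus T1 within a set ran from −10.34 to −0.81 for FABP6 in jejunum.

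**Figure D4:**
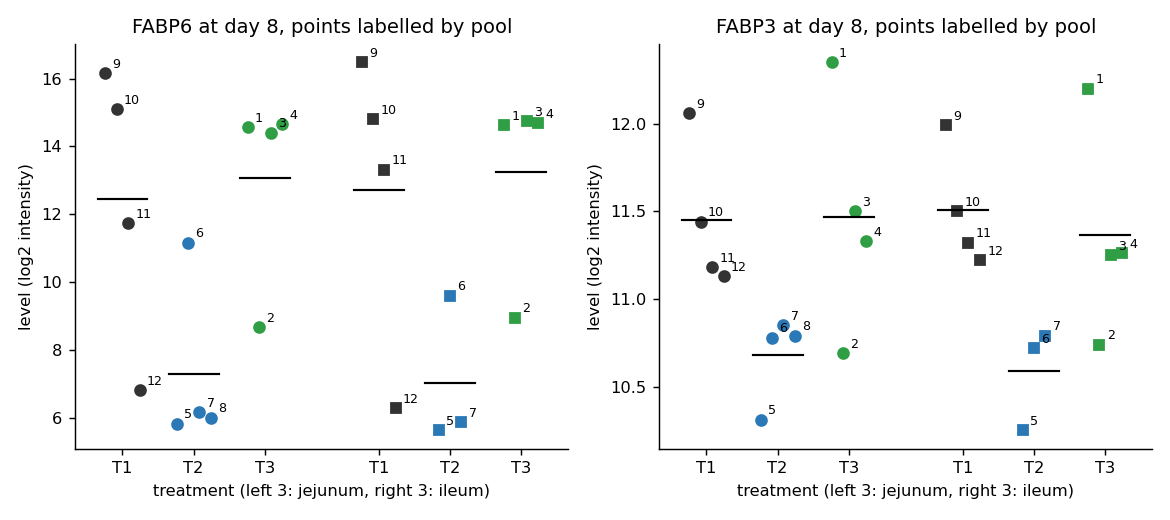
Levels (log2 intensity) of FABP6 and FABP3 at day 8 by treatment, with 1 point per pool labelled by its number and a bar at the group mean, jejunum in the left 3 groups and ileum in the right 3. T2 pools are low for both genes, T1 pool 12 and T3 pool 2 are low for FABP6 as well, and none of the differences was called.

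Leaving out 1 array changed 1 of these results: without ileum T1 pool 12, FABP6 was lower in T2 than in T1 by 7.84 in ileum (limma adjusted p = 0.0444). The same removal raised the count of all genes called in that comparison from 43 to 1890. A 2-way analysis of variance as named in the methods was run on the 23 intestinal arrays of day 8 and 30816 genes. It gave FABP3 an adjusted p of 0.128 and FABP6 one of 0.133 for treatment, where 51 of all genes passed. The paper took out 1 array of each tissue at quality control and kept fewer genes, so this is not its own result. At the later ages the largest treatment difference was of FABP6 in jejunum at day 176, T2 minus T1 at −3.32 ± 1.79 (n = 3 and 4, limma adjusted p = 0.258), with T2 pool 8 at 7.52 and the other pools of both groups at 17.58 to 18.42. FABP4 in ileum at day 176 was lower in T2 than in T1, which lay on another slide, by 1.91 ± 0.78 (limma adjusted p = 0.619), with T1 levels of 5.44, 8.48, 6.44 and 9.73 and T2 levels of 6.33, 6.04, 4.63 and 5.45. FABP2 in jejunum at day 55 was at 16.71, 16.64, 16.43 and 16.72 in T1 and at 16.24, 16.04 and 15.81 in T2, a difference of −0.59 ± 0.23 (limma adjusted p = 0.205). Without ileum T3 pool 1 at day 55, the one T3 pool with a FABP4 level of 6.01 beside 4.53, 4.64 and 4.56, FABP4 was called lower in T3 than in T1 there (−0.83, limma adjusted p = 0.0295), where it was −0.46 with all pools. The T3 arrays of that set lay on a slide of their own with 42.4 to 52% of probes well above background, against 62.6 to 73.1% on the slide of T1, and 4, 4, 0 and 4 of the 7 FABP4 probes were above background in T3 pools 1 to 4, against 5, 5, 6 and 5 in T1 pools 9 to 12. That difference cannot be told apart from the slide.

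In blood the FABP6 probe split the pools, again not by treatment alone. T1 levels were 4.95, 4.79, 5.01 and 8.88 in pools 9 to 12, T2 levels 8.74, 8.57, 7.49 and 8.08 in pools 5 to 8, and T3 levels 8.76, 8.07, 4.35 and 6.33 in pools 1 to 4. The low pools in blood were 3, 4, 9, 10 and 11, whose jejunum levels at day 8 were 11.74 to 16.16, and the remaining pools, at 7.49 or more in blood, had jejunum levels of 5.82 to 11.16 except pool 1 (14.57). Pools with much FABP6 signal in the intestine thus mostly had little in blood. This order was noticed after the values were seen and was not tested. T2 was higher than T1 by 2.31 ± 1.04 (n = 4 and 4, limma adjusted p = 0.461). No member was called in 18 blood tests by limma, beside 0.00347% of all genes (0.00694% for T2 against T1), and 1 of the 18 had an unadjusted p below 0.05, beside 7.25% of all gene tests. FABP3 in blood ranged from 5.55 to 6.51 and FABP5 from 4.08 to 5.46 over 12 pools, with T2 minus T1 of −0.26 ± 0.20 for FABP3.

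The genes most like FABP6 were sought among 2227 genes with a symbol, by Pearson correlation over the 67 intestinal arrays. The closest were ZPBP2 (r = 0.83), SQLE (0.81), CACNB4 (0.81), SPAI-2 (0.81) and CD79A (0.79). After the mean of each group of tissue, age and treatment was removed, the closest were CD79A (r = 0.82), a part of the B cell antigen receptor, then CACNB4 (0.70), ZPBP2 (0.70), SFRP4 (0.70) and BCAS4 (0.67). CD79A is shown here because of this correlation, so its likeness to FABP6 in the same arrays is a description. At day 8 it was at 9.74, 9.90, 6.83 and 5.57 in jejunum of T1 pools 9 to 12, at 5.58, 6.17, 6.01 and 3.2 in T2 pools 5 to 8, and at 10.38, 6.06, 11.05 and 9.69 in T3 pools 1 to 4. The 5 pools with jejunum FABP6 above 14 were those with CD79A above 9. CD79A was not well above background in jejunum T2 pool 8 and ileum T2 pool 5. Of 18 listed lymphoid markers 9 were tested in the intestine: CD79A, CCR7, CCL19, CCL21, CD3D, CD3G, CD4, CD8A and LCK. Their mean centred levels were −2.25 to −0.13 at day 8. Within jejunum they were −0.71 to −0.13 in those 5 pools and −2.17 to −1.10 in the other 7. Within ileum they were −1.15 to −0.42 in those 5 pools and −2.25 to −1.24 in the rest. There T1 pool 12 (FABP6 6.27) was at −1.24 and T1 pool 11 (FABP6 13.31) at −1.38. CD79A, chosen for its likeness to FABP6, is 1 of the 9, so this split is partly built in. At day 176 jejunum T2 pool 8 and T3 pool 4, the 2 pools with low FABP6, had the lowest lymphoid levels of their set (−1.74 and −0.89). They also had the lowest levels of 10 enterocyte markers (−0.59 and −0.21) and of 6 macrophage markers (−3.3 and −1.28, with a median of 0.2 in that set). The low levels were thus not particular to lymphoid markers, and CD79A was not well above background in T2 pool 8 (1.82). The order of FABP6 and lymphoid levels did not hold at day 55. In the low FABP6 pools of jejunum the lymphoid level was −0.38 in T1 pool 10, the lowest of the set, but 0.42, 0.17 and 0.23 in T3 pool 2, T2 pool 5 and T1 pool 12. It was −0.09 and −0.17 in T2 pools 6 and 7, whose FABP6 levels were 18.14 and 18.52. The part of lymphoid tissue in the FABP6 levels was not tested.

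**Figure D5:**
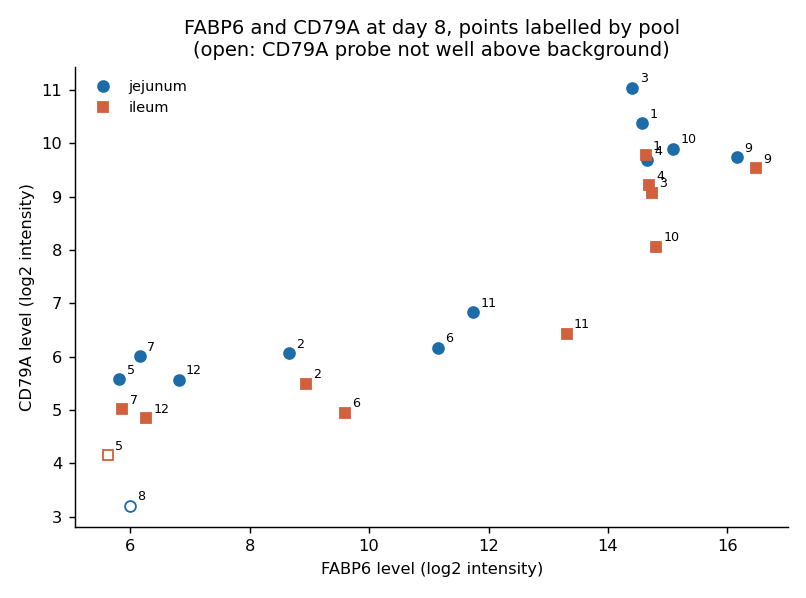
FABP6 level against CD79A level (both log2 intensity) on the 23 intestinal arrays of day 8, with circles for jejunum and squares for ileum, labelled by pool, and open symbols where the CD79A probe was not well above background. Pools 1, 3, 4, 9 and 10 lie at high levels of both genes in both tissues.

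For the other members the most similar genes were as follows, each over 67 arrays that share their pools between tissues. FABP2 went with OTC, the retinol carrier RBP2 and the nuclear receptor NR1I3 (r = 0.91 each), and FABP1 with GSTA1 (0.86), DHDH (0.85) and the gut hormone CCK (0.81). FABP3 went with the mitotic kinase PBK (0.93), BCL2A1 (0.92) and the Fc receptor FCGR2B (0.92). FABP4 went with FMO1 (0.77), CA3 (0.76) and CIDEA (0.75), and FABP5 with SELP (0.81), CAPZA2 (0.74) and GPX4 (0.70). Among the members FABP1 and FABP2 went together (r = 0.77), FABP3 and FABP6 likewise (0.75), and FABP2 ran against FABP3 (−0.71).

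Of 23 genes listed for bile acid handling 3 were on the array under a symbol, and the bile acid transporters were not among them. VDR and NR1I2 (PXR), nuclear receptors that bind bile acids among other ligands, fell with age in ileum: VDR fell by 2.10 ± 0.25 (adjusted p = 2.67e-10) and NR1I2 by 1.2 ± 0.17 (adjusted p = 3.16e-08) from day 8 to day 55, and by 2.25 ± 0.25 and 1.61 ± 0.17 to day 176. In jejunum, where FABP6 rose by 6.10 to day 55, VDR changed by −0.24 ± 0.24 and was not called and NR1I2 fell by 0.61 ± 0.17, and to day 176 they fell by 1.74 ± 0.24 and 1.38 ± 0.17. Under the names of the value table VDR changed by −0.77 in ileum and −2.63 in jejunum to day 55, the former not called, and NR1I2 by −0.77 and −1.35. In jejunum at day 55 both were called between treatments and FABP6 was not. VDR was at 7.63, 8.17, 7.80 and 7.98 in T1, 9.52, 9.82 and 9.08 in T2 and 10.20, 9.97, 10.53 and 9.66 in T3, with no overlap of T1 with either group. It was higher in T2 by 1.58 ± 0.29 (limma adjusted p = 0.0048), a comparison within 1 slide, and in T3 by 2.19 ± 0.27 (limma adjusted p = 3.55e-05). The T3 arrays lay on another slide than those of T1, so that for VDR and NR1I2 T3 minus T1 cannot be told apart from the slide. NR1I2 was higher by 1.07 ± 0.20 (limma adjusted p = 0.00502) and 1.23 ± 0.19 (limma adjusted p = 0.000246), beside 2.98% and 10.8% of all genes called in these comparisons. CYP8B1, an enzyme of bile acid synthesis in liver, was well above background on 9 of 12 jejunum arrays of day 8 and on 0 to 4 arrays of every other set, and no change is given for it.

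Genes that take up and esterify fatty acids mostly fell with age, as FABP1 and FABP2 did in ileum. Of 20 listed genes on the array, 1 rose and 16 fell in ileum from day 8 to day 55 (median −1.76) and the same numbers did so to day 176 (median −2.17). In jejunum 1 rose and 12 fell to day 55 (median −0.96), and 1 rose and 18 fell to day 176 (median −1.64). The gene that rose was the acyl-CoA synthetase ACSL4, by 1.5 ± 0.11 in ileum to day 55 and 0.99 ± 0.11 in jejunum to day 176. Those that fell most in ileum to day 176 were APOC3, a protein of lipoproteins, by 8.06 ± 0.30 (adjusted p = 2.13e-29) and ACSL3, by 5.69 ± 0.18 (adjusted p = 1.14e-32). DGAT2, which makes triglycerides, fell by 5.59 ± 0.24 in ileum to day 55 and by 2.74 ± 0.24 in jejunum. By the table's names the numbers to day 55 were 3 higher and 15 lower in jejunum and 0 and 3 in ileum. Of 10 transcription factors listed for FABP genes, 1 rose and 7 fell in ileum to day 55 and likewise to day 176, among them GATA4 by 4.52 ± 0.35 and 5.02 ± 0.35. By the table's names 0 rose and 1 fell in ileum to day 55 and 0 and 9 in jejunum, with 1 and 7 in ileum to day 176, and GATA4 changed by −0.42 in ileum and −4.64 in jejunum to day 55. Over all genes 24.4% rose and 23% fell in ileum to day 55, and 25.9% and 22.7% to day 176. In jejunum 18.1% rose and 18.9% fell to day 55, and 26.9% and 22% to day 176. By the table's names 2.5% of all genes were called in ileum and 39.8% in jejunum to day 55, in either direction. In ileum to day 176 it was 50.7%.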

How the data were processed

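Total RNA of 79 pools was labelled with 1 colour and hybridized to Agilent pig arrays. The intensity values were deposited by the authors as written by Agilent Feature Extraction 10.7.3.1, which subtracts background and detrends each spot, without normalization between arrays. The deposited flags per spot (0 or 1, scores for well above background, saturated and outlier) were used as given. The authors also deposited a table of normalized log2 values, which was used only to check sample names. Here signals were set to at least 1 and log2 transformed, outlier spots left out, spots of a probe averaged, and quantile normalization performed over the 67 intestinal and the 12 blood arrays separately. Probes with a value on all arrays that reached the 20th percentile on every array of at least 1 group were kept, and probes of a symbol averaged, which left 30816 genes in intestine and 28831 in blood. Symbols came from RefSeq accessions (5461 of 43603 probes, 12.5%). Fits used limma 3.58.1 in R 4.3.3 without a block, after the methods, with Benjamini-Hochberg adjustment within a comparison. Treatment was fitted per age over 6 groups, age over 18 groups. Pools of equal number hold the same piglets at day 8 by the methods, and their deviations from group means correlated between the tissues at a mean of 0.176 (11 pairs). The steps were tested on simulated data. P-values rest on 1 spread per gene over all groups of a fit, so they do not measure the spread of any single group. Jejunum and ileum arrays of the same piglets were counted as separate. The number of pools limits the precision. The members and lists were chosen with earlier results of these data known. Named genes were the members, the bile acid genes, the most similar genes and the extremes of other lists. Lymphoid and adipocyte markers by pool, and the comparison with blood, were added after values were seen.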

Additional observations from a re-analysis of the deposited data

Results flagged for a closer look

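In groups of 4 pools, the highest or lowest pool stood apart by Dixon's 95% criterion in 11 of 96 groups. The criterion marks about 1 in 20 independent groups. These groups are not independent, since the tissues of a pool share piglets at day 8, so the count is not set against chance. For FABP6 the pools apart at day 8 were T3 pool 2 in jejunum (8.66) and in ileum (8.94) and T2 pool 6 in jejunum (11.16). The others were T3 pool 2 in jejunum at day 55 (15.79) and T1 pool 12 in blood (8.88). For FABP3 they were T2 pool 5 in jejunum at day 8 (10.31) and T3 pool 4 in jejunum at day 55 (13.52). For FABP1 it was the same jejunum T3 pool 4 at day 55 (17.25), where the other pools all read 17.19 after rounding. For FABP4 they were T3 pool 1 in ileum at day 55 (6.01), T1 pool 12 in jejunum at day 55 (7.04) and T2 pool 5 in blood (2.69), the last not well above background. T3 pool 2 is low for FABP6 at both day 8 and day 55, which are different piglets.

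The age change differed between ileum and jejunum past the limits of the limma fit in 10 of 18 cases under the scanner names, which are a description because the tissue difference was in view when the family was chosen. From day 8 to day 55 the change in ileum minus that in jejunum was −1.34 for FABP1, −2.01 for FABP2, 0.73 for FABP3 and −1.35 for FABP4. To day 176 it was −0.99 for FABP1, −2.61 for FABP2, 1.60 for FABP3 and −1.44 for FABP4. From day 55 to day 176 it was −0.60 for FABP2 and 0.87 for FABP3.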

How the results depend on the processing

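The names of the value table, tried after the data were seen, moved the most. Under them FABP6 in ileum minus jejunum was −6.10 at day 8 and −7.11 at day 55, the age by tissue differences from day 8 to day 55 were 1.34 for FABP1, 2.01 for FABP2, −0.73 for FABP3 and 1.35 for FABP4, the changes in ileum to day 55 were 0.02 for FABP1, −0.05 for FABP3 and 0.20 for FABP4, and the changes in jejunum were 0.49 for FABP5 to day 55 and −0.66 for FABP3, 0.09 for FABP5 and −0.67 for FABP6 to day 176. With T1 pools only, 4 age by tissue calls were made against 10, from fewer arrays by construction. Over all alternatives that did not leave out 1 array each, the age calls numbered 14 to 22, and no treatment comparison of a member was called. Leaving out each array in turn gave 18 to 19 age calls, 8 to 10 age by tissue calls, 0 to 1 treatment calls at day 8 and at day 55, and 0 at day 176 and in blood. FABP2 from day 55 to day 176 by tissue was lost most often, and FABP3 by tissue to day 55 was 0.25 with 75th percentile scaling and 0.54 with normexp. That scaling moved the median change of all genes by −0.58 to 0.52, and the share of called genes that were higher from 51.5% to 71.8% in ileum from day 8 to day 55 and from 45.5% to 17.5% for age by tissue from day 55 to day 176. A replicate block for pools of the same piglets (age and tissue) or of the same sows (treatment) changed no call of a member: with it, FABP6 in T2 minus T1 at day 8 was −5.16 in jejunum (limma adjusted p = 0.547) and −6.38 in ileum (0.176). The sow block raised the count of all genes called for T2 against T1 in ileum at day 8 from 43 to 102. Each group lay on 1 slide, so a fixed slide block could not be fitted and the comparisons within a slide keep their values by construction. The slide as a random block changed no age call and no count of all genes called for age. Since each group lay on 1 slide, it could not estimate differences between slides, so nothing is read from it.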
